A study of Mus musculus with 2 samples.

Results

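Transcripts of 38 cell cycle genes were followed by phase through 2 single-cell libraries of mouse lung cells, 1 of niche cells and 1 of distal lung cells. The genes were taken by symbol from the deposited count tables and fall into 12 genes of DNA replication, 20 genes of mitosis and 6 genes that also have uses outside the cycle. Of the 38, 33 are listed in at least 1 table, among 11407 genes listed in all. Of these 33, 19 are listed in both tables, 14 in the niche table only and 0 in the distal table only. The remaining 5, Mki67, Cenpe, Aurkb, Bub1 and Plk1, are in neither table, so nothing is said of their levels. A gene that a table does not list is unlisted there, and not a count of 0.

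Both libraries hold CD45- cells, that is, cells sorted as lacking the leukocyte surface protein CD45, from lungs taken 7 days after mice received Labelling-4T1 cells by vein. 4T1 is a mouse mammary carcinoma line, and in the labelling design it releases a fluorescent protein that neighbouring cells can take up. The labels give no strain, age or number of animals, do not say how niche cells were told from distal ones, and give neither library a treatment of its own. Each group is therefore 1 library, no p-value can be given for a difference between them, and every interval below is a 95% interval for counting error only.

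Cells that divide switch on genes in waves. The MCM helicase, the clamp Pcna and the enzymes that make nucleotides are transcribed towards S phase, when DNA is copied, largely under E2F factors. The cyclin B partner Cdk1, spindle and kinetochore proteins and the ubiquitin enzyme Ube2c follow in G2 and M phase. Their transcription is largely under the DREAM and MuvB complexes, which bind CHR elements. Most cells of an adult lung are at rest, so these transcripts are sparse in it.

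The promoters of the members show that difference in letters and are given here because the results below are split by the same phases. RefSeq windows (build GRCm38.p6, 250 bases before to 50 after each start) were found for 32 of the 38 members, 2 of them under an older symbol, with 33 windows in all. Mcm4, Ccna2, Tpx2, Aurkb, Smc4 and Stmn1 were not matched. Both strands were searched for the CHR element TTTGAA, for CCAAT, and for 4 E2F letters, TTTCCCGC, TTTCGCGC, TTTGCCGC and TTTGGCGC. CHR stood in 10 of 16 mitosis windows (62.5%), 1 of 12 replication windows (8.33%) and 17.9% of all 32851 windows. E2F letters stood in 5 of 12 replication windows (41.7%), those of Mcm3, Mcm5, Mcm6, Mcm7 and 2810417H13Rik. They stood in 1 of 16 mitosis windows (6.25%), that of Cdk1, and in 2.26% of all windows. CCAAT was common to both phases, with 10 of 12 replication windows (83.3%) and 14 of 16 mitosis windows (87.5%) against 37.4% of all. A match is a string of letters, and binding was not measured. The window parts before the start of 4 members, printed 5′ to 3′ on the strand of the gene with motif letters in capitals, are chr8:75109259-75109508 (plus strand) for Mcm5, chr1:128359706-128359955 (minus strand) for Mcm6, chr11:99024190-99024439 (minus strand) for Top2a and chr10:69352939-69353162 (minus strand) for Cdk1. The last one ends 26 bases before the RefSeq start, where the GENCODE vM21 gene model begins. Matches after the start, and a CHR of Cdk1 at -15, were counted but are not printed. In Mcm5 and Mcm6 a run of capitals holds E2F matches on both strands that overlap each other.
Mcm5: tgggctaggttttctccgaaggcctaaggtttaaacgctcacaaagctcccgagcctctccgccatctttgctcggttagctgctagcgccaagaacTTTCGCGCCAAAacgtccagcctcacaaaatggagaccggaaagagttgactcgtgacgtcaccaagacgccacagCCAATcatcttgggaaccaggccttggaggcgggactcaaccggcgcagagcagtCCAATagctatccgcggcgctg
Mcm6: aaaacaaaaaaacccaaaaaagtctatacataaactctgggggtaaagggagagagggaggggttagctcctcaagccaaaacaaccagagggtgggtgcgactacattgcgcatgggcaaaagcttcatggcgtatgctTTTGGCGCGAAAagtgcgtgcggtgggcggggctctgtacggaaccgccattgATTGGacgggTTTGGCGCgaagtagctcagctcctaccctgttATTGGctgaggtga
Top2a: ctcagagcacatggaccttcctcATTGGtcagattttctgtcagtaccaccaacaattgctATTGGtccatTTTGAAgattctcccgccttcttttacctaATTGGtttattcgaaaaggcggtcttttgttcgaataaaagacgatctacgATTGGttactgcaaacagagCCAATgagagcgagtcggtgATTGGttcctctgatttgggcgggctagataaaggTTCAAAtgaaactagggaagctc
Cdk1: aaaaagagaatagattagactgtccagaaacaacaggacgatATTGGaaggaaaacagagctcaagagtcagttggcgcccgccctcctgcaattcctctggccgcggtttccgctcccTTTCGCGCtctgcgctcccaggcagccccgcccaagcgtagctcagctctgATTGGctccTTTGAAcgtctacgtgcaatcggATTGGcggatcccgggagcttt

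The niche table held 1473 barcodes, 1996 were in the distal one, and 1423 and 1987 were kept. Median depth was 2975 UMIs (unique molecular identifiers, each standing for 1 captured transcript) and 1349 genes per niche cell, against 1975 UMIs and 1074 genes per distal cell. The tables share 7 barcodes, 6 of them among kept cells. Classes come from clusters rebuilt without any cell cycle gene and are named only as like a cell type. Mesenchymal-like cells numbered 781 (niche) and 399 (distal), endothelial-like cells 497 and 1307, and epithelial-like cells outside the set-apart cells 49 and 252. Different clusters fill a class in each library. The largest epithelial-like cluster of the niche, with 28 cells, was led by Krt18 and Krt8, and that of the distal library was alveolar type 2-like with 214 cells. Among mesenchymal-like cells the niche held 189 cells of a cluster led by Timp1, Cxcl10 and Cxcl9, and the distal library 3.

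Before any comparison, 45 niche cells were set apart by a rule that uses no cell cycle gene: less than 27.6 Malat1 UMIs per 10000, which is 0.1 of the niche median of 276, and at least 3 UMIs over the keratins Krt7, Krt8, Krt18 and Krt19. They are 3.16% of kept niche cells, with a median of 4118 UMIs, 10 keratin UMIs and 4.86 Malat1 UMIs per 10000, and 41 of them lie in the epithelial-like cluster led by Krt18 and 4 in the alveolar type 1-like cluster. Outside the keratins of the rule, Epcam gave 75 UMIs in 20 of the 45 cells, but Cdh1, which encodes E-cadherin, gave 3 UMIs. Krt18 gave 236 UMIs in 41 cells, but it is a keratin of the rule and so no separate marker. Vim gave 324 UMIs in 32 cells. The alveolar type 1 list gave 315 UMIs, 311 of them in the 4 cells of the alveolar type 1-like cluster. The alveolar type 2 list gave 26 UMIs, with Lamp3, Lyz1, Sftpd and Slc34a2 at 0, and the 4 leukocyte markers listed in both tables were all at 0. Most member UMIs lay in the 41 cells, with 389 of 393 mitosis UMIs and 219 of 223 replication UMIs. The other 4 cells are few, and their 4 UMIs of each phase stand for 643 CPM (175 to 1650). For replication this overlaps the interval of the 41 cells (996 to 1300), and for mitosis it lies below theirs (1830 to 2240). The same rule found 3 distal cells of other kinds, 2 in the alveolar type 2-like and 1 in the adventitial fibroblast-like cluster, with 3369 UMIs of the alveolar type 2 list. They held 0 UMIs of the 9 replication and 0 of the 4 mitosis members listed in both tables, which at their depth leaves an upper bound of 283 CPM for each sum. The niche cells are called by the rule below.

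Most listed mitosis members were in the niche table only. Of the 15 listed mitosis members, 11 are in the niche table alone (73.3%), namely Top2a, Cdk1, Ccnb1, Ccnb2, Ccna2, Birc5, Tpx2, Ube2c, Cenpf, Nusap1 and Aurka. Of 12 replication members, 3 are niche only (25%): Rrm2, a subunit of ribonucleotide reductase, Tk1, a thymidine kinase, and 2810417H13Rik, which encodes the Pcna-associated factor Pclaf. All 6 genes with other uses are in both tables. Over all listed genes, 5.20% are niche only. Other genes of the same processes leaned the same way, with 13 of 45 listed further mitosis genes (28.9%) and 8 of 43 further replication and repair genes (18.6%) in the niche table alone, while 2 of 37 genes of G1 entry and its brakes were (5.41%). Every gene of the niche table has UMIs in at least 10 cells and every gene of the distal table in at least 11.

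The set-apart cells hold 3.89% of the UMIs of kept niche cells, and the median gene has 1.59% of its niche UMIs in them. For the 14 niche-only members the median share was 53.5%, from 9.38% for Cenpf to 69.4% for Rrm2. For the 19 members in both tables it was 18.9%, from 5.68% for Stmn1 to 40.6% for Cks1b. More than 50% of the niche UMIs lay in the set-apart cells for 8 members, and for 31 of all 10791 niche genes (0.287%). Rrm2 had 34 of 49 UMIs there, 2810417H13Rik 43 of 65, Tk1 27 of 42, Birc5 65 of 100, Ube2c 65 of 101 and Cdk1 34 of 57. These genes span both phases, from nucleotide supply to the survivin gene Birc5, a subunit of the chromosomal passenger complex. Cenpf, a kinetochore protein, stood apart with 3 of 32 UMIs, and 17 of the others were in mesenchymal-like cells. Without the set-apart cells, Ccnb1 (8 cells), Ccna2 (9 cells) and Nusap1 (5 cells) would be below the 10 cells that every listed niche gene reaches, and none of the 19 members in both tables would be. Ccna2 and Nusap1 are among the 8 members above, so their place there follows in part from how the table was filtered.

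**Figure D1:**
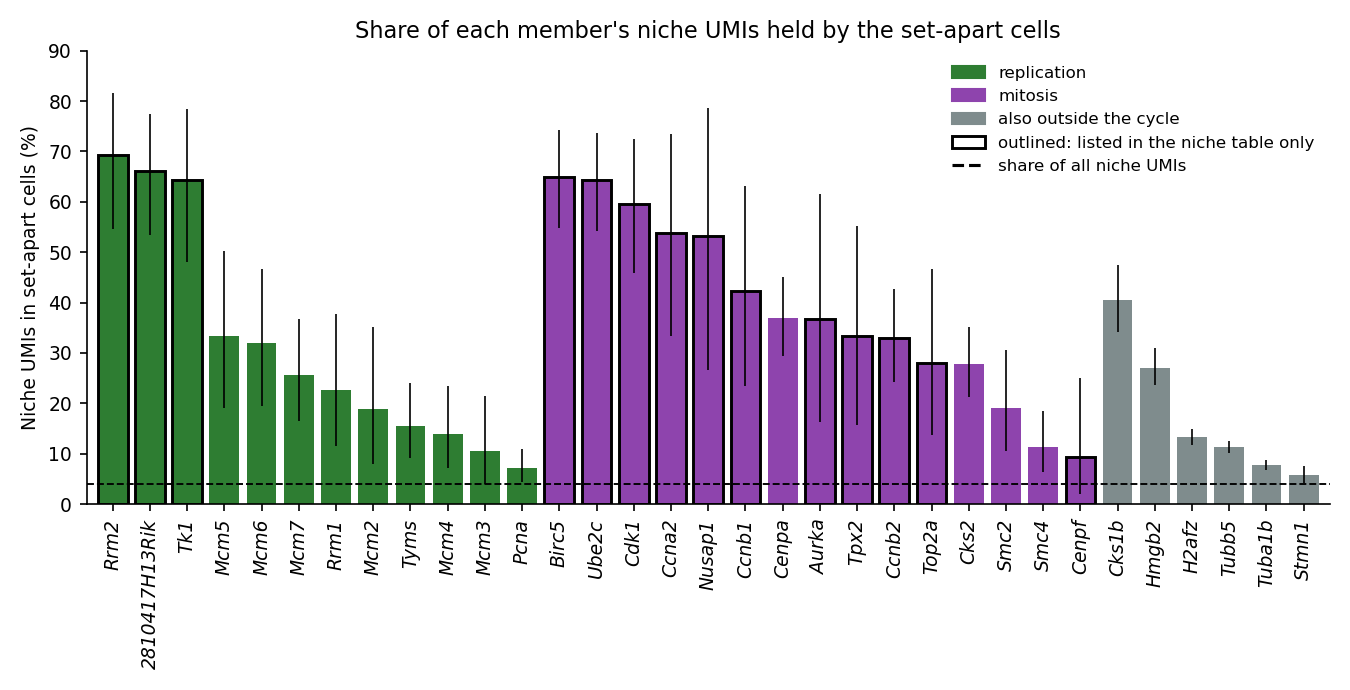
Bars give the percentage of each member's UMIs in kept niche cells that lies in the 45 set-apart cells, with exact binomial 95% intervals, for the 33 listed members ordered by share within replication (green), mitosis (purple) and genes with other uses (grey). Outlined bars are the 14 members listed in the niche table only, and the dashed line is the share of all niche UMIs, 3.89%: Rrm2 is highest at 69.4% and Stmn1 lowest at 5.68%.

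Within the niche library the set-apart cells were compared with all other kept cells. The 12 replication members summed to 223 UMIs in the set-apart cells and 699 elsewhere, or 1130 against 143 per 1000000 UMIs of genes common to both tables (CPM), a log2 ratio of 2.98 (2.76 to 3.20). The 15 mitosis members summed to 393 and 668 UMIs, 1980 against 136 CPM, a log2 ratio of 3.87 (3.68 to 4.05). The 6 genes with other uses gave 5430 against 1650 CPM and 1.72 (1.63 to 1.81). The mitosis interval lies above the replication interval, and both lie above that of the genes with other uses. A member was called higher or lower where its ratio was at least 2-fold and its counting interval left out 0 on the log2 scale. By that rule 30 of 33 members were higher and 0 lower, against 6.78% of all 10791 niche genes higher and 22.1% lower. Since Ccnb1, Ccna2 and Nusap1 are listed only through these cells, their ratios had to be high. Over genes that reach 10 cells without the set-apart cells, 27 of 30 members were higher and 0 lower, against 6.62% of 10771 genes higher and 22.1% lower, with a median log2 ratio of 3.24 for members and -0.86 for all genes. The mitosis sum of the remaining 12 members was at 3.81 (3.62 to 4.0).

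Among replication members the ratio was greatest for Rrm2 (log2 5.78), 2810417H13Rik (5.58) and Tk1 (5.46). The helicase subunits ran from 1.64 for Mcm3 and 2.06 for Mcm4 to 3.57 for Mcm6 and 3.66 for Mcm5, and Pcna, the sliding clamp that also serves DNA repair, was not called. Among mitosis members Birc5 (5.51), Ube2c (5.47) and Cdk1 (5.18) led, followed by the mitotic kinase Aurka (3.89) and Cenpa (3.86). Ccnb2, a B-type cyclin, stood at 3.62. The cyclins Ccna2 (4.84) and Ccnb1 (4.20) and the microtubule-binding Nusap1 (4.81) are given as values only, for the reason above. The condensin subunits Smc2 and Smc4, which compact chromosomes, were lower in this order at 2.59 and 1.71, and Cenpf was not called. Of the genes with other uses, Cks1b, a small subunit of cyclin-dependent kinases, reached 4.09 and the chromatin protein Hmgb2 3.21, while Tuba1b, an alpha-tubulin, was at 1.05 and Stmn1 was not called. Cks1b was also among the leading genes of the cluster that holds most of these cells, although it took no part in the clustering. Tuba1b, Tubb5, H2afz, Hmgb2, Cks1b and Cks2 have near-identical relatives or pseudogenes, so reads could be divided among them and their counts are less certain.

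Of pathway genes outside the members that reach 10 cells without the set-apart cells, 25 of 41 further mitosis genes were higher and 0 lower in the set-apart cells (median log2 1.80), with Cdkn3 (5.15), Cenpw (4.40) and Pbk (4.74) foremost by interval bound. Of 39 replication and repair genes 18 were higher and 0 lower (median 1.59), among them Asf1b (5.48) and Dbf4 (4.32). Of 37 genes of G1 entry and its brakes 2 were higher, Ccnd1 (2.33) and Cdk4 (1.44), which drive G1, and 16 were lower (median -1.17). Other genes that promote entry into the cycle were among the lower ones, such as the D-type cyclin Ccnd2 (4 against 504 UMIs, -2.18) and Myc (5 against 370, -1.44), both named after their values were seen. The antiproliferative gene Btg2 had 10 UMIs against 7469 elsewhere (log2 -4.85), and the transcription factor gene Klf4 to 3 against 1986 (-4.52).

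The other 28 niche cells of the cluster led by Krt18 also held members. The 4 genes of the airway club cell list found in both tables gave 91 UMIs in the set-apart cells. In these 28 cells they gave 15443, unevenly (median 14.5, at most 5240 in a cell), so the neighbours are a mixture and not cells of 1 kind. The mitosis sum of the 28 cells was 744 CPM (588 to 928) and their replication sum 467 CPM (346 to 618). The replication interval lay above those of mesenchymal-like (112 CPM, 101 to 124) and endothelial-like cells (183 CPM, 161 to 207). The mitosis interval also lay above theirs (97.6 and 139 CPM) but overlapped that of immune-like cells (584 CPM, 457 to 736), whose sum is mostly Cks2. Of their 78 mitosis UMIs, 56 lay in 2 cells with 28 each, and without these 2 cells the mitosis sum was 223 CPM (140 to 337), which overlaps the endothelial-like interval (120 to 160), and the replication sum 395 CPM (281 to 540). The set-apart cells exceeded these neighbours by 1.41 on the log2 scale for mitosis (1.06 to 1.79) and 1.26 for replication (0.82 to 1.75). Without the 2 cells the differences were 3.12 (2.54 to 3.85) and 1.5 (1.01 to 2.04). The 2 cells were picked by their mitosis UMIs and left out of the neighbours only, so the mitosis difference had to widen. The set-apart cells kept theirs, with up to 53 mitosis UMIs in a cell. Ube2c gave 16 UMIs in 3 of the 28 cells, and Cks1b 23 in 10 cells. Splitting all kept niche cells by both criteria gave the mitosis sum at 1980 CPM in the 45 cells with low Malat1 and keratin, 607 CPM (485 to 751) in 32 cells with keratin but more Malat1, 184 CPM (138 to 240) in 104 cells with low Malat1 but no keratin, and 118 CPM (109 to 129) in the 1242 cells with neither. The 607 CPM rest on the same 2 cells, and without them the 30 remaining cells gave 217 CPM (145 to 311), which overlaps the cells with low Malat1 but no keratin. Replication stood at 1130, 364, 229 and 130 CPM, and the middle intervals overlap (271 to 479 and 177 to 291). The classes are mixed unequally in these groups: among epithelial-like cells alone replication was 564 CPM (378 to 810) in 13 cells with low Malat1 but no keratin and 360 CPM (264 to 478) in 30 cells with keratin but more Malat1, while 84 mesenchymal-like cells with low Malat1 gave 155 CPM. With or without the 2 cells, the interval of the set-apart cells lay above those of the other 3 groups in both phases.

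Members of both phases were also counted within each niche cell. At least 2 replication UMIs were seen in 32 of 45 set-apart cells (71.1%) and at least 2 mitosis UMIs in 32 cells. Both were reached in 26 cells (57.8%, 42.2 to 72.3), replication alone in 6, mitosis alone in 6 and neither in 7. With 32 of 45 cells reaching each phase, much overlap follows from those shares alone, and a link between the phases was not tested. Among the other niche cells both were reached in 6 of 28 cells of the cluster led by Krt18 (21.4%), 8 of 781 mesenchymal-like cells (1.02%), 3 of 497 endothelial-like cells (0.604%) and 0 of 51 immune-like cells. Depth differs between these classes, with median UMIs of 4118, 3768, 3557, 2341 and 2014. The share of cells reaching each phase differs too, with 7.04% (replication) and 4.74% (mitosis) of mesenchymal-like cells. With each cell thinned to 1200 UMIs, at least 2 mitosis UMIs remained in 18 of 45 set-apart cells (40.0%), 8 of 781 mesenchymal-like cells (1.02%) and 2 of 497 endothelial-like cells (0.402%), and both phases in 6 set-apart cells (13.3%). The count of 2 UMIs is a point on a range and not a cell state: at full depth 194 mesenchymal-like cells had exactly 1 replication UMI and 38 exactly 2.

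**Figure D2:**
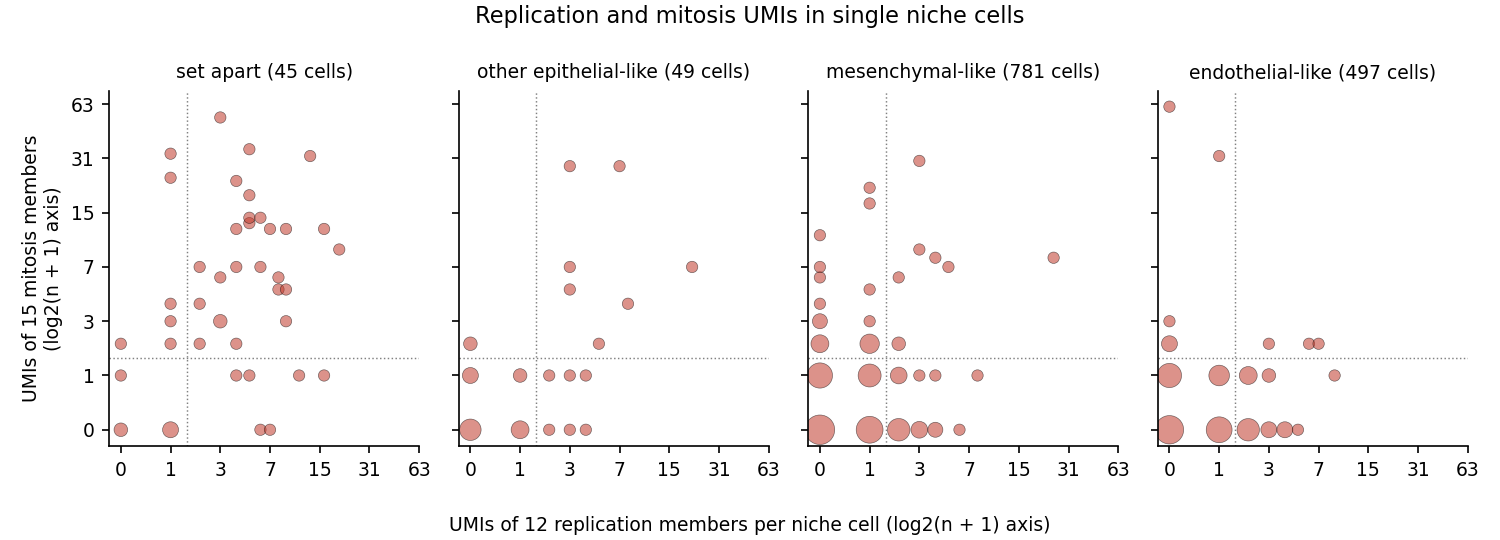
Each point is a pair of UMI counts found in niche cells, replication (12 members) on the horizontal and mitosis (15 members) on the vertical axis, both on a log2(n + 1) scale, with larger points for more cells and dotted lines between 1 and 2 UMIs. The upper right field holds 26 of 45 set-apart cells but 8 of 781 mesenchymal-like and 3 of 497 endothelial-like cells, and the endothelial-like cell at the top left has 61 mitosis UMIs and 0 replication UMIs.

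Outside the set-apart cells, a few cells carried much of the mitosis signal. An endothelial-like cell with 2774 UMIs held 41 UMIs of the 11 niche-only mitosis members, out of 43 in its whole cluster of 104 niche cells and 77 in all 497 endothelial-like cells. It had 11 Ube2c, 6 Top2a, 5 Cdk1, 5 Birc5 and 5 Cenpf UMIs, 0 keratin UMIs and 0 UMIs of the 12 replication members, and all 11 Ube2c UMIs of the class were its own. A lymphatic-like endothelial cell held 17 of the 18 such UMIs of its cluster. In mesenchymal-like cells the 132 niche-only mitosis UMIs were more spread, with at most 13 in a cell. Ccnb2 alone gave 57 of them, in 35 cells, of which 13 had a UMI of another mitosis member (37.1%, against 16.5% of mesenchymal-like cells without Ccnb2). In the set-apart cells all 19 cells with Ccnb2 had one, against 18 of 26 cells without Ccnb2 (69.2%). The cluster led by Cxcl14, Eln and Mdk held 62 of the 132 UMIs and that led by Timp1, Cxcl10 and Cxcl9 held 46, while the myofibroblast-like cluster of 188 cells held 8.

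The libraries were then compared class by class without the set-apart cells, over the 19 members listed in both tables. In mesenchymal-like cells the sums of the phases lay on opposite sides of 0 for the class as a whole, but not in each of its clusters. The 9 replication members summed to 333 niche UMIs in 781 cells and 132 distal UMIs in 399 cells, 104 (93.3 to 116) against 142 CPM (118 to 168), a log2 ratio of -0.45 (-0.74 to -0.14). With TMM scaling the replication ratio was -0.30 (-0.59 to 0.01), an interval that includes 0. By cluster, replication was 90.7 (66.4 to 121) against 193 CPM (143 to 255) in adventitial fibroblast-like cells. Intervals overlapped in pericyte-like cells (61.5 against 226), myofibroblast-like cells (117 against 111) and the clusters led by Cxcl14 (115 against 87.8) and Inmt (125 against 130). The 4 mitosis members, Cenpa, Cks2, Smc2 and Smc4, summed to 180 and 27 UMIs, 56.3 (48.4 to 65.2) against 29.0 CPM (19.1 to 42.1), a log2 ratio of 0.94 (0.37 to 1.60). By cluster, mitosis was 99.3 (78.2 to 124) against 26.4 CPM (5.43 to 77.0) in that led by Cxcl14. That cluster had 76 niche UMIs, 17 of them in 1 cell, against 3 distal UMIs in 48 cells. Intervals overlapped in myofibroblast-like (31.2 against 18.5) and adventitial fibroblast-like cells (47.3 against 19.7). They also overlapped in the cluster led by Inmt (27.1 against 45.6) and in pericyte-like cells (30.8 against 37.7), both lower in the niche. Over the class, all 4 mitosis members had positive ratios, from 0.74 for Smc4 (54 and 9 UMIs) to 1.03 for Cenpa, the centromeric histone H3 variant (59 and 8 UMIs). The intervals of Cks2 (-0.29 to 2.49), Smc2 (-0.54 to 2.95) and Smc4 (-0.22 to 2.01) included 0. Cenpa was the 1 of 19 members called higher, against 3.37% of 9970 genes, and Mcm3 the 1 called lower, with 11 niche and 13 distal UMIs (log2 -2.01, -3.32 to -0.75), against 7.47% of genes. The class median over all genes was -0.16. Of the 59 niche Cenpa UMIs, 13 came from 1 cell, and without the cell that had the most mitosis UMIs in each library Cenpa stood at 0.67 (-0.36 to 2.04) and 0 members were called higher, while the mitosis sum was 0.84 (0.26 to 1.52).

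**Figure D3:**
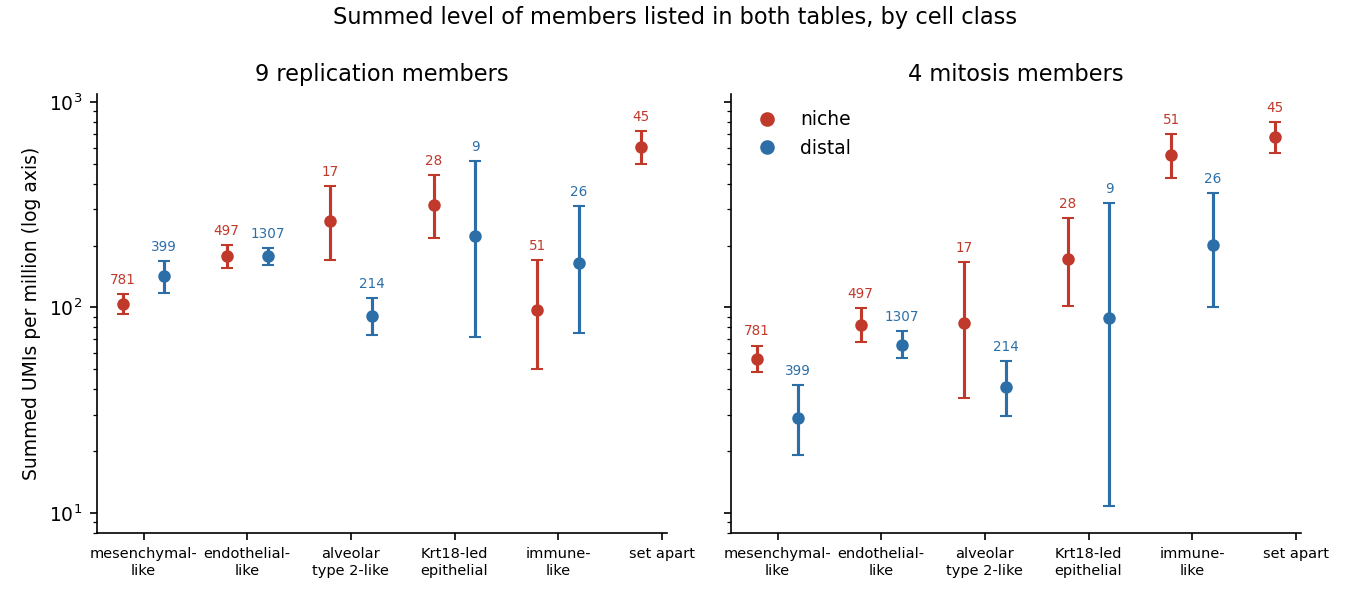
Points give the summed level of the 9 replication members (left) and the 4 mitosis members (right) listed in both tables, in CPM on a log axis, for niche (red) and distal (blue) cells of each class, with exact Poisson 95% intervals and the number of cells above. The set-apart niche cells are highest at 601 and 672 CPM. Mesenchymal-like cells, taken as a class, differ in opposite directions in the panels. The immune-like niche cells reach 552 CPM for mitosis but 97.4 CPM for replication.

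The share of mesenchymal-like cells with at least 2 UMIs of those 4 mitosis members was 22 of 781 in the niche (2.82%, 1.77 to 4.23). In the distal library it was 0 of 399, with an upper bound of 0.92%. After thinning to 1200 UMIs it was 5 of 781 in the niche (0.640%, 0.208 to 1.49) and 0 of 353 in the distal library, with an upper bound of 1.04%. At equal depth the shares could therefore not be told apart. For replication the shares were 6.53% and 5.51% at full depth and 0.768% and 1.70% after thinning. The 29 distal alveolar type 1-like cells gave 2 cells for replication (6.90%, 0.846 to 22.8) and 0 for mitosis at a median of 3007 UMIs, against medians of 3557 and 2078 UMIs in the niche and distal mesenchymal-like cells. With so few cells this range covers both replication shares of mesenchymal-like cells and gives no firm background level.

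In endothelial-like cells the libraries were close. Replication members summed to 244 niche UMIs in 497 cells and 456 distal UMIs in 1307 cells, 178 against 177 CPM (log2 0.01, -0.22 to 0.24). Mitosis members gave 113 and 170 UMIs, 82.5 against 66.0 CPM (0.32, -0.04 to 0.67). Cks2, a kinase subunit like Cks1b, was the 1 of 19 members called higher, against 2.12% of 9710 genes, with 22 and 15 UMIs (log2 1.45, 0.45 to 2.51), and 0 were lower, against 1.58%. Of its 22 UMIs, 9 lay in 1 cell, and without the cell with the most mitosis UMIs in each library Cks2 was at 1.02 (-0.22 to 2.29) and the mitosis sum at 0.15 (-0.24 to 0.53). Lymphatic-like cells had 40 replication UMIs in 34 niche cells against 4 in 11 distal cells, numbers too small to set against each other.

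In epithelial-like cells both phases were higher in the niche. Replication members gave 58 UMIs in 49 niche cells and 111 in 252 distal cells, 274 (208 to 354) against 93.7 CPM (77.1 to 113), a log2 ratio of 1.55 (1.06 to 2.02). Mitosis members gave 26 and 49 UMIs, 123 against 41.4 CPM (1.58, 0.82 to 2.28). Of 16 members with at least 10 UMIs, 7 were higher, against 6.67% of 7747 genes, and 0 lower, against 3.25%: Cks1b (3.91), Mcm3 (2.48), Tyms (1.98), Cks2 (1.64), Tuba1b (1.34), Tubb5 (1.32) and Pcna (1.26). Tyms makes thymidylate, and Tubb5 is a beta-tubulin. The class median over all genes was 0.15. The cluster led by Krt18 moves with this difference, since it holds 28 of the 49 niche cells, 15 of them with at least 3 keratin UMIs, and 9 of the 252 distal ones. Without that cluster 1 member was higher, Pcna at 1.36 (0.15 to 2.32), the replication sum was 1.38 (0.67 to 2.0) and the mitosis sum 0.96 (-0.41 to 1.98). In alveolar type 2-like cells alone, 17 niche and 214 distal, replication stood at 263 against 90.8 CPM (1.56, 0.84 to 2.18). Of those 25 niche UMIs, 18 were in 1 cell. Pcna, with 10 niche UMIs of which 7 lay in 1 cell, was the 1 of 12 members called higher (1.59), against 4.16% of 6964 genes, with 0 lower, against 0.761%.

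**Figure D4:**
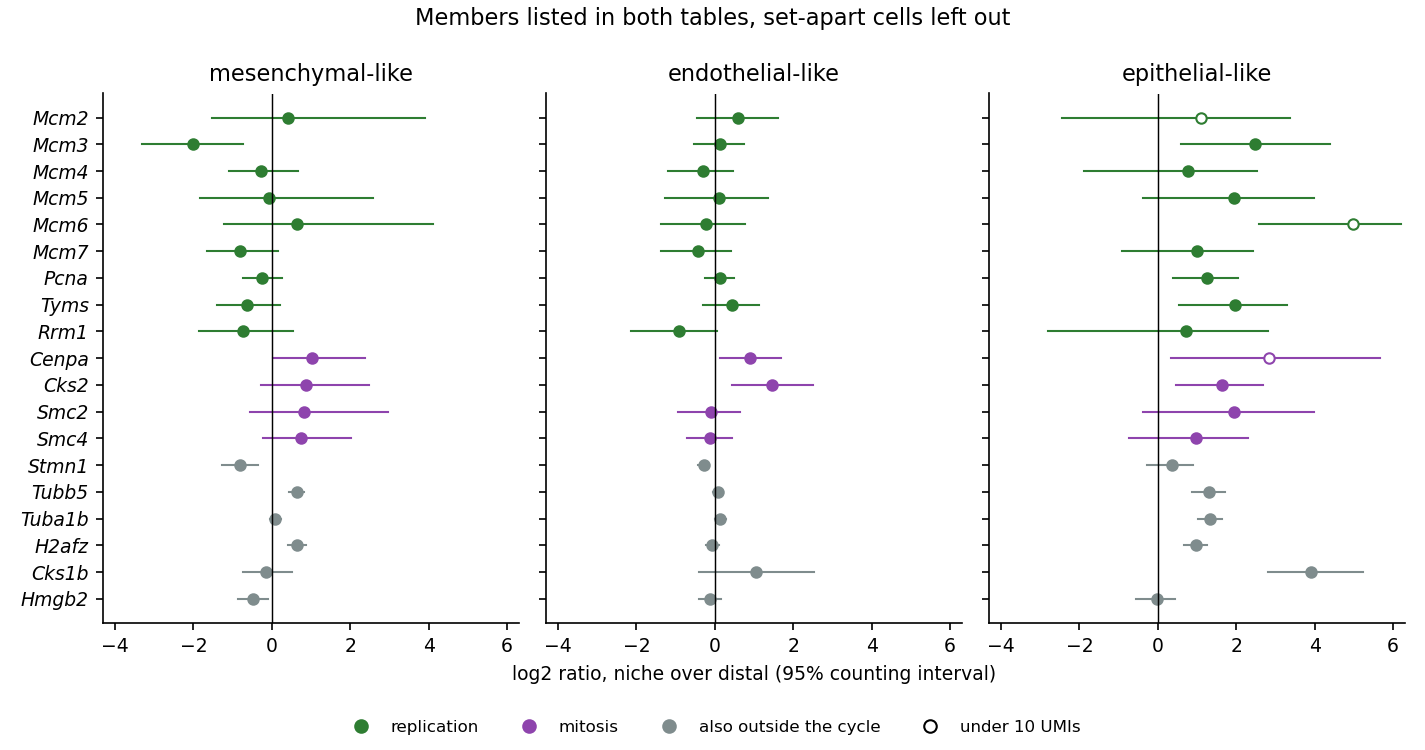
Log2 ratios of niche over distal are plotted for the 19 members listed in both tables in mesenchymal-like, endothelial-like and epithelial-like cells without the set-apart cells, with counting 95% intervals as lines, colours by phase and open points for members under 10 UMIs, and the epithelial Mcm6 line runs past the axis. Purple mitosis members lie right of 0 in mesenchymal-like cells, while most green replication members lie left of it. Of these, only Cenpa and Mcm3 have intervals that leave out 0. In epithelial-like cells Cks1b is at 3.91.

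Over all cells together, where the classes enter in different numbers, replication was 132 CPM (niche) and 149 CPM (distal), a log2 ratio of -0.18 (-0.33 to -0.02) and mitosis 79.0 and 54.2 (0.54, 0.31 to 0.78). Of 19 members 3 were higher, against 5.32% of 10198 genes: Cks2 (124 and 44 UMIs, 1.44), Cks1b (130 and 48, 1.38) and Cenpa (99 and 46, 1.05). Stmn1 was the 1 called lower, against 5.68%, with 764 niche and 1600 distal UMIs (log2 -1.11, -1.24 to -0.99). Stmn1 differed less within endothelial-like cells, where most of it lay (609 and 1388 UMIs, log2 -0.28). In mesenchymal-like cells it was -0.82, with 121 and 62 UMIs. If the set-apart cells were kept in, the replication sum would be 0.01 (-0.14 to 0.16) and the mitosis sum 0.92 (0.70 to 1.14).

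Stmn1 and Cks2 were also found in cells with few other members. Stmn1, which encodes the microtubule-destabilising protein stathmin, was found in 299 of 497 niche endothelial-like cells, and 20.1% of these had a UMI of a mitosis member, against 15.2% of those without Stmn1. In the set-apart cells 22 of 23 cells with Stmn1 had one, against 15 of 22 cells without Stmn1 (68.2%). By cluster, Stmn1 ran from 183 to 787 CPM in niche endothelial-like clusters and from 13.8 to 86.7 CPM in mesenchymal-like ones, while the sum of 4 mitosis members ran from 19.8 to 167 CPM and from 27.1 to 99.3 CPM. Cks2 gave 50 UMIs in 8 of 51 niche immune-like cells against 1 UMI in 26 distal ones. Of the 50, 45 came from 4 cells (at most 19 in a cell), and 3 of the 8 cells had a UMI of another mitosis member. H2afz, a histone variant, likewise had 61 of its 994 mesenchymal-like niche UMIs in 1 cell.

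**Figure D5:**
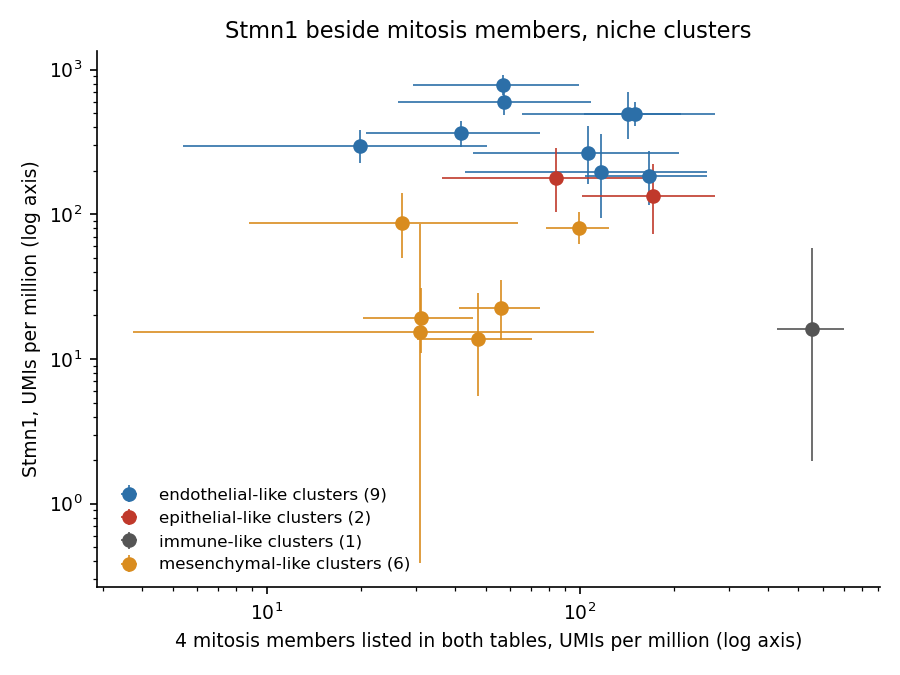
Each point is a niche cluster of at least 10 cells without the set-apart cells, with the summed level of the 4 mitosis members listed in both tables on the horizontal axis and Stmn1 on the vertical axis, both in CPM on log axes with exact Poisson 95% intervals. Endothelial-like clusters lie between 183 and 787 CPM of Stmn1 and mesenchymal-like clusters between 13.8 and 86.7, over overlapping mitosis levels.

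Other genes of the cycle were read against the share of all genes called in each class. In mesenchymal-like cells (3.37% higher, 7.47% lower) 2 of 29 further mitosis genes were higher and 1 lower, and Cdc20, an activator of the anaphase-promoting complex, had 18 niche and 0 distal UMIs. Of 30 replication and repair genes 0 were higher and 2 lower, Prim2 (-1.55) and E2f1 (-1.63). Of 34 genes of G1 entry and its brakes 0 were higher and 5 lower, among them the kinase inhibitors Cdkn2c (290 and 193 UMIs, -1.19), Cdkn1c (214 and 133, -1.09) and Cdkn2d (99 and 68, -1.24). In endothelial-like cells (2.12% higher, 1.58% lower) Tubb6 (1.19), Cdc20 (1.67) and Pttg1, the securin gene (1.22), were among 4 of 32 mitosis genes called higher, and Ubr7 (-1.10) was the 1 of 33 replication and repair genes called lower. In epithelial-like cells (6.67% higher, 3.25% lower) 8 of 22 replication and repair genes and 7 of 27 mitosis genes were higher and 0 lower, led by Rfc5 (3.27), Prim1 (3.22) and Dut (2.01), and by Cdc20 (2.76), Ran (1.75) and Tubb6 (2.82). Of 29 genes of G1 entry and its brakes 7 were higher too and 0 lower, so the rise was not particular to those 2 lists. Median log2 ratios were 1.24 (replication and repair), 0.80 (mitosis) and 0.51 (G1 entry and brakes). In alveolar type 2-like cells alone, without the cluster led by Krt18 that holds 28 of the 49 niche cells, 0 of 15 replication and repair genes and 1 of 22 mitosis genes were higher, against 4.16%.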

How the data were processed

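Libraries were made with droplet chemistry that counts the 3′ ends of transcripts, per the labels' protocols. The submitters' processing notes name mm10 as genome, Cell Ranger 2.1.1 and R 3.4.1. What the authors deposited are unscaled UMI counts for each gene in each cell, and each table lists only its own genes.

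Barcodes were kept from 500 genes upward and up to 10% mitochondrial UMIs. Members and other listed cell cycle genes were removed, and Leiden clusters (resolution 1, 15 neighbours) were built on 20 principal components of 2000 variable genes with scanpy 1.11.5 and leidenalg 0.10.2, under Python 3.11.15 with scipy 1.17.1. A class needed at least 3 markers in 25% of a cluster's cells. Scrublet called 10 niche and 24 distal doublets, which were kept.

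UMIs were summed by class and scaled to the 10198 genes in both tables. Ratios had 0.5 UMI added, with exact conditional binomial intervals. Sums had exact Poisson and shares exact Clopper-Pearson 95% intervals. A ratio was called where the genes had at least 10 UMIs. For a share of 0 cells the upper bound is that of the Clopper-Pearson interval. TMM factors came from edgeR 4.0.16. The counting statistics were tested on simulated sums drawn with counting error alone. The simulation holds no clumping of UMIs in single cells, so it does not test the intervals where a few cells carry a sum. The members and lists were chosen with earlier results of these data known. All 38 members are accounted for, and the other cycle genes named are the 3 highest and 3 lowest of each list by the interval bound nearest 0, of which the text gives those it needs. Alternatives covered filters, depth, scaling, clustering, doublets and the rule for the set-apart cells.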

Additional observations from a re-analysis of the deposited data

Results flagged for a closer look

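The replication sum lay above 0 in epithelial-like cells (log2 niche over distal 1.55) and below 0 in mesenchymal-like cells (-0.45), so the only library of each group moved in opposite directions in these classes. The helicase gene Mcm3 did the same, with 2.48 in epithelial-like cells (6 UMIs in each library) and -2.01 in mesenchymal-like cells (11 and 13 UMIs). Of its 6 niche epithelial-like UMIs, 4 lay in the cluster led by Krt18 and 2 in 1 alveolar type 2-like cell. Of the 58 UMIs of the niche epithelial-like replication sum, 33 lay in that cluster and 18 in 1 alveolar type 2-like cell. With TMM scaling the interval of the mesenchymal-like replication sum included 0. With 1 library per group the difference between the classes was not tested.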

How the results depend on the processing

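No paired analysis was possible because each group is 1 library, and for the same reason no replicate could be left out. Of 237 recomputed values of the 18 sums and counts over 21 alternatives, 216 stayed within their limits. With the set-apart cells kept in their classes the replication sum over all cells changed sign to 0.014, the mitosis sum over all cells was 0.92, and epithelial-like cells gave 2.21, 3.23 and 18 members called higher. With cells thinned to 1200 UMIs the members called higher were 1 over all cells, 0 in mesenchymal-like, 0 in endothelial-like, 3 in epithelial-like and 19 in set-apart cells, and Cks2 in epithelial-like cells changed sign to -0.47. With at least 1000 genes per cell they were 0 in mesenchymal-like and 2 in endothelial-like cells, and the mitosis sum of the set-apart cells was 4.05. The mesenchymal-like count was also 0 without all low-Malat1 cells, at Leiden resolution 2 and with 1 UMI added, and the epithelial-like count was 12 with a keratin limit of 5 UMIs. Of the alternatives chosen after seeing the data, leaving out the cluster led by Krt18 left 1 epithelial-like member, and leaving out the cell with the most mitosis UMIs left 0 mesenchymal-like and 0 endothelial-like members. Without the 2 cells with the most mitosis UMIs in the rest of the Krt18-led cluster, the mitosis sum of the set-apart cells over that rest was 3.12 against 1.41. Cells were left out on that side only, so this value had to rise. The fall in counts on thinning goes with fewer UMIs per gene, and for the other settings the cause was not tested. The mesenchymal-like replication sum ran from -0.59 to -0.30 (the latter with TMM scaling, whose interval of -0.59 to 0.01 includes 0) and the mitosis sum from 0.83 to 1.25 over 17 alternatives. Members with under 10 UMIs in a class, and members that a table does not list, give no contrast between the libraries.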
